A study of Apis mellifera with 96 samples.

Results

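The genes described here are 60 genes of the honey bee (Apis mellifera) that the count table lists only by a LOC number, and whose difference between foragers and nurses changed most between day 7 and day 26. They were chosen by measured values. Of 9935 genes in the table, 9537 carry a LOC number, and 5601 of these had a mean of at least 10 CPM (counts scaled to a common library total). On the scale of log2(CPM + 1), the role difference was forager minus nurse, and its change was the role difference at day 26 minus that at day 7. A gene was eligible where the size of this change was at least 2 times both its average role difference and its average difference between days, which left 386 genes. The 60 with the largest change were taken. Under this rule the role difference has opposite signs on the 2 days for every gene chosen, so that crossing and its size are a description of the choice and carry no test.

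The bees were wild-type, untreated workers, and each library was made from whole-bee RNA. Adults 1 day old from 6 origin colonies (107, 109, 115, 122, 127 and 137) were distributed over 3 nuclear hives that already held a queen and frames of honey. Foragers and nurses were collected on day 26 and on day 7 and frozen on dry ice. The libraries used numbered 24 of foragers at day 26, 24 of nurses at day 26, 22 of foragers at day 7 and 22 of nurses at day 7. The labels do not state how many bees a library holds, nor that libraries of a group are independent animals, so a p-value here reflects only how libraries vary, which may be technical. Age and the day of capture cannot be told apart.

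Workers of the honey bee normally nurse the brood while young and forage when old. A forager at day 7 is therefore early for its task, and a nurse at day 26 is late for it. A negative change means that a gene was higher in young foragers and old nurses than in young nurses and old foragers, and a positive change means the reverse. Nurses carry active hypopharyngeal glands, which make the proteins of royal jelly, and the glands of foragers turn to enzymes that process nectar. No product or role is given for any of the 60 genes in the sources used here, so they are described by their levels and by the named genes they varied with. All 60 are protein coding in the RefSeq table of assembly Amel_HAv3.1.

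The 92 libraries held 197805 to 2300891 counts on genes, with a median of 1288440.5. A library of 81736 counts (replicate 1 of colony 107, young foragers) was left out by the rule. At 10 CPM a library of median depth holds 12.9 counts, a counting error of 27.9%, and 27 of the 60 genes had a mean under 20 CPM. The shallowest library used, from colony 122 foragers at day 7 (replicate 3, 197805 counts), held the lowest or highest value of its group for 24 of the 60 genes, and one from colony 109 foragers at day 26 (replicate 3 #2, 355499 counts) did so for 16. In 37 of the 92 libraries the profile of mitochondrial transcripts lay nearer to the median of another colony than to that of their own. In 6 of these it lay apart, at a distance of at least 3 from its own colony and at least 1.5 times that to the nearest one, a cut set after the data were seen. Of these 6, the libraries of colony 115 lay at 12.4 to 13.5 from their own colony, and the others at 3.41 to 4.03. A library outside the 6, from colony 115 foragers at day 7 (replicate 3), lay at 7.07 from its own colony, which was also its nearest. Without those 6, the same rule chose 45 of the 60 genes, and it also chose 45 without the 2 libraries under 500000 counts. In 3 pairs of libraries from the same colony, role and day, the counts differed far less than usual, by 1.52 to 3.76 in chi-square per gene against a median of 15.5. The cut at 4 has no gap behind it, since the next pair differed by 4.14. The counts do not show whether each such pair comes from separate bees.

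The change of the role difference was negative in 45 of the 60 genes and positive in 15. Its size ran from 0.49 to 2.96 on the log2(CPM + 1) scale, with a median of 0.59. A negative sign was also the more frequent one among the 5601 LOC genes from which they were drawn, at 66.0%, and among the 386 eligible ones, at 64.2%. That background depended on scaling. In CPM the median role difference of all 5601 genes was 0.22, and with TMM factors, which correct for a few genes that take up much of a library, it was -0.00. With TMM factors 52.3% of the 5601 genes had a negative change, and the rule then chose 29 negative and 31 positive genes. The change of each of the 60 genes kept its sign with TMM factors, but the role difference at day 26 changed sign in 3 of the 15 positive genes, and that at day 7 in 8 of the 45 negative ones.

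**Figure D1:**
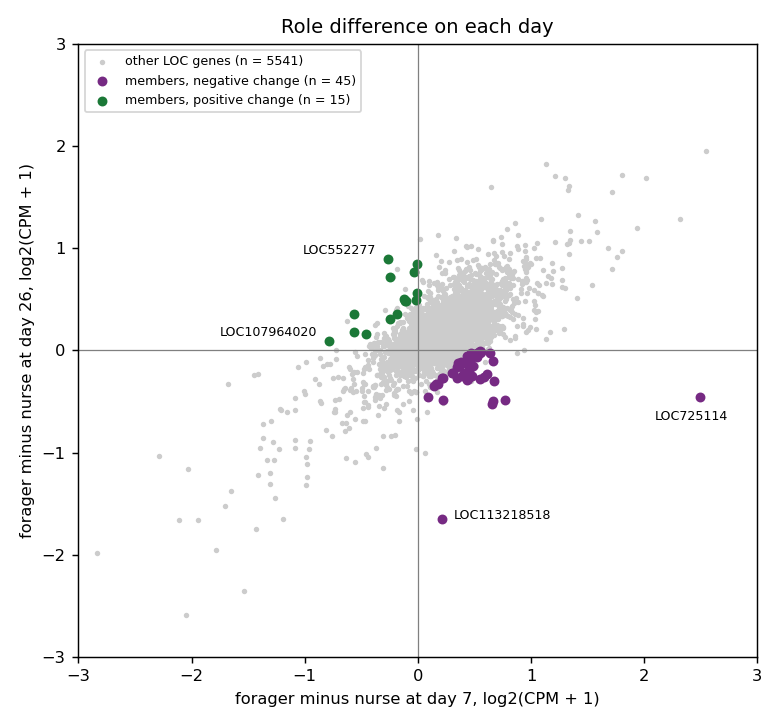
Role difference at day 7 (x axis) and at day 26 (y axis), forager minus nurse in log2(CPM + 1), for the 60 genes in colour (45 with a negative change, 15 with a positive one) and the 5541 other LOC genes at a mean of 10 CPM or more in grey (5 of these lie outside the axes). The rule places the coloured points in the upper left and lower right quadrants, with LOC725114 at 2.50 on the day 7 axis and LOC113218518 at -1.65 on the day 26 axis.

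The group means took several orders. Among the 45 negative genes, 22 were highest in foragers and lowest in nurses of day 7, 10 were highest in nurses of day 26 and lowest in nurses of day 7, 9 were highest in foragers of day 7 and lowest in foragers of day 26, and 4 were highest in nurses and lowest in foragers of day 26. Among the 15 positive genes, 7 were highest in foragers and lowest in nurses of day 26. For 4 the highest group was foragers of day 26 and the lowest foragers of day 7. For 3 the highest was nurses and the lowest foragers of day 7, and 1 was highest in nurses of day 7 and lowest in nurses of day 26. For every one of the 60 genes the ranges of foragers and nurses overlapped on both days, as they did for all 5601 LOC genes.

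LOC725114 had the largest change, -2.96. Its CPM ran from 429.7 to 6730.5 with a median of 1893 in foragers at day 26, and from 473 to 24453 with a median of 1696 in nurses at day 26. At day 7 it ran from 519 to 15935 with a median of 3805 in foragers, and from 307 to 4189 with a median of 614 in nurses. Young foragers had the highest median and young nurses the lowest, with all 4 ranges overlapping, and the libraries of day 26 were spread over both levels in each role. On the log2(CPM + 1) scale its role difference was -0.46 at day 26 and 2.50 at day 7. The change was negative in all 6 colonies, from -5.35 in colony 109 to -0.98 in colony 107. In colony 109 the mean level was 2457 CPM in foragers and 12071 CPM in nurses at day 26, and 8418 CPM in foragers and 795 CPM in nurses at day 7. In colony 107 all 4 means lay between 708 and 1311 CPM.

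LOC113218518 followed with -1.86. At day 26 foragers ran from 253 to 4450.1 CPM with a median of 823, and nurses from 353 to 6115 CPM with a median of 3169. At day 7 foragers ran from 237 to 5862 CPM with a median of 1468, and nurses from 149 to 3272 CPM with a median of 1520.3. Old nurses were thus the high group, old foragers the low one, and the young bees of both roles lay between them. The role difference was -1.65 at day 26 and 0.21 at day 7, and with TMM factors the day 7 value was -0.05, so the crossing itself depends on the scaling. Colony 109 again had the largest change, -5.35, against -1.82 to -0.58 in the other 5 colonies. Without colony 109 the fitted log2 change was -0.97 in place of -1.61.

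LOC406081 changed by -1.26. It ran from 879 to 6012 CPM (median 2448) in foragers at day 26 and from 1759.9 to 7597 CPM (median 3239) in nurses at day 26, against 1182 to 5138 CPM (median 2811) in foragers at day 7 and 223 to 3404 CPM (median 1949.8) in nurses at day 7. Young nurses had the lowest median here as well, and old nurses the highest. Colony 109 stood apart here too, at -3.53, and the other 5 colonies lay between -1.04 and -0.30. The lowest value of young nurses, 223 CPM, came from replicate 3 of colony 109. Leaving out this library moved the change over all colonies most, to -1.12. The change within colony 109 was not computed without it. Without colony 109 the fitted log2 change was -0.61 in place of -0.97.

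These 3 genes varied with royal jelly and defence genes. To see this, each of the 24 means by colony, role and day was subtracted, and the remaining deviations of a gene over the 92 libraries were correlated with those of each of 218 genes that have a name. These correlations are descriptions, since all genes of a library share its depth and composition. LOC113218518 was closest to Mrjp5, a major royal jelly protein gene, with r = 0.87. LOC406081 was closest to Mrjp7, another gene of that family, with r = 0.61. LOC725114 was closest to Def1, which encodes a defensin, an antimicrobial peptide, with r = 0.55, and it varied with LOC113218518 at r = 0.62.

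Mrjp5 itself had a median of 598 CPM in foragers and 5771 CPM in nurses at day 26, and of 1402 CPM in foragers and 3518 CPM in nurses at day 7. It thus stood higher in nurses than in foragers on both days, and its fitted log2 interaction of -1.18 ± 0.49 (SE) did not pass (edgeR adjusted p = 0.273). The other royal jelly genes on the list had positive fitted interactions, from 0.22 for Mrjp1 to 1.31 for Mrjp3, and none passed. That of Mrjp7, the closest to LOC406081, was 0.87 ± 0.51 (SE; edgeR adjusted p = 0.483), opposite in sign to the change of LOC406081. The 6 royal jelly genes together ran from 2120.5 to 110170 CPM in foragers at day 26 (median 6550) and from 2387 to 208848 CPM in nurses at day 26 (median 117413). At day 7 they ran from 638 to 43067 CPM in foragers (median 5685) and from 2358 to 166727 CPM in nurses (median 101677). Their part in the levels of LOC113218518 and LOC406081 was not tested. In whole bees, fewer cells of a type and less RNA per cell cannot be told apart.

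LOC409143 changed by -1.18, with a median of 86.4 CPM in foragers (5.11 to 142) and 87.7 CPM in nurses (48.9 to 193) at day 26, and of 105 CPM in foragers (55.9 to 156) and 67.9 CPM in nurses (10.7 to 110.1) at day 7. The old bees had nearly equal medians, and a few foragers of day 26 far below the others lowered that group's mean on the log scale. LOC551879 changed by -1.15, with medians of 23.5 CPM in foragers (8.12 to 47.5) and 32.2 CPM in nurses (14.3 to 63.2) at day 26, and of 38.0 CPM in foragers (10.1 to 77.5) and 26.6 CPM in nurses (1.07 to 37.0) at day 7. Young foragers were the highest group by median and old foragers the lowest, and the change was negative in all 6 colonies. Its closest named gene was Lop1, the long-wavelength opsin of the eye, at r = 0.55. Among nurses of day 7, both genes were lowest in the same library, replicate 3 of colony 109. LOC551879 was at 1.07 CPM there and Lop1 at 5.37 CPM. The correlation was not computed without this library. Lop1 had medians of 199 CPM in foragers and 152 CPM in nurses at day 26, and 146 CPM in foragers and 90.9 CPM in nurses at day 7, so its role difference did not cross.

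**Figure D2:**
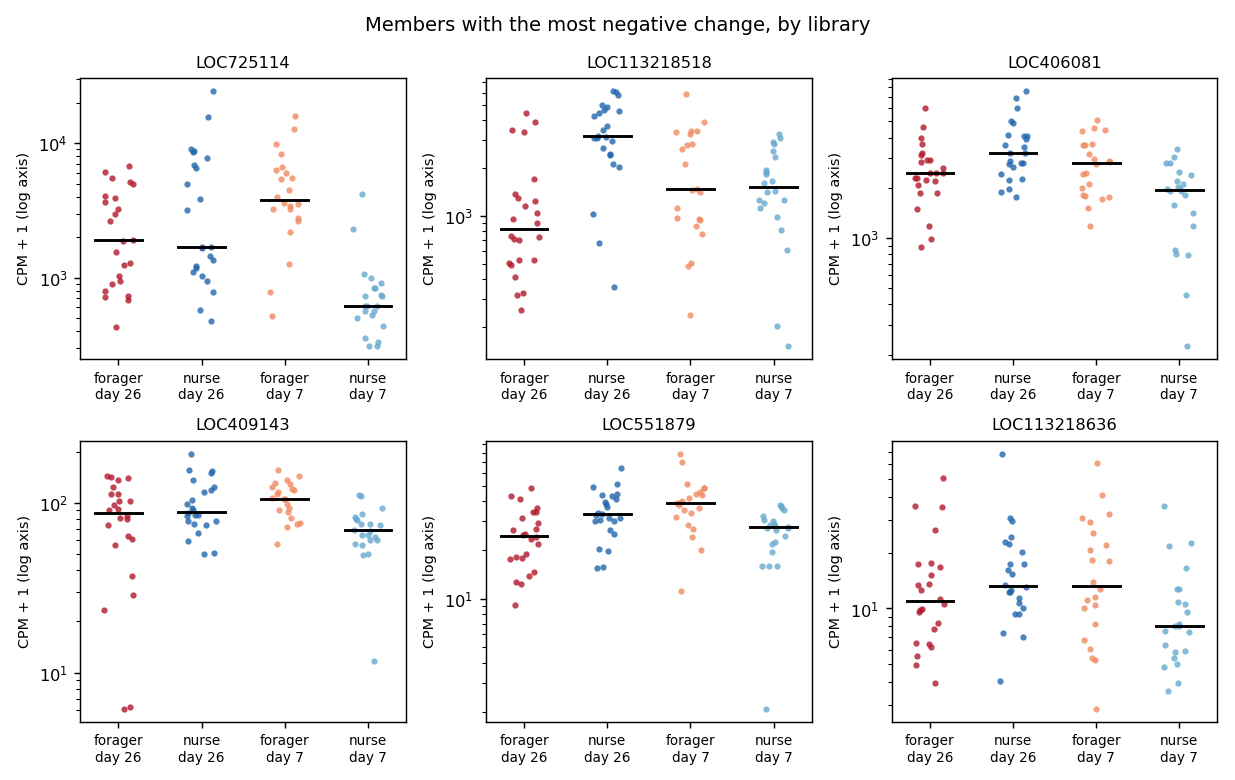
CPM + 1 on a log axis in each library (points) with the group median (bar) for the 6 genes with the most negative change, in foragers and nurses of day 26 and foragers and nurses of day 7. For LOC725114 the median was 3805 CPM in young foragers and 614 CPM in young nurses, and the libraries of day 26 were spread over both levels.

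LOC100576886 (-0.85), LOC410566 (-0.84) and LOC413495 (-0.77) complete this group with LOC113218636 and LOC100577840, described below. LOC410566 had medians of 8.21 CPM in foragers and 9.75 CPM in nurses at day 26, and of 14.4 CPM in foragers and 8.07 CPM in nurses at day 7, so that young foragers stood above the other 3 groups. LOC413495 had medians of 10.5 CPM in foragers and 10.7 CPM in nurses at day 26 and of 10.8 CPM in foragers at day 7, against 6.43 CPM in nurses at day 7, which stood apart as the low group. LOC100576886 had medians of 34.5 CPM in foragers and 42.1 CPM in nurses at day 26, and of 35.7 CPM in foragers and 26.9 CPM in nurses at day 7. Its change was positive in colony 127 (0.50) and negative in the other 5 colonies.

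LOC113218636, LOC100577840 and LOC100577640 varied together over libraries (r = 0.58 to 0.66), and the closest named gene to each was vas, which encodes an RNA helicase known as a marker of the germ line in Drosophila. The correlations with vas were 0.71, 0.66 and 0.78 in that order. LOC113218636 changed by -0.98, with medians of 9.93 CPM in foragers (2.95 to 49.4) and 12.3 CPM in nurses (3.06 to 67.2) at day 26, and of 12.3 CPM in foragers (1.87 to 59.8) and 7.05 CPM in nurses (2.58 to 34.5) at day 7. Each group held a few libraries several times above its median. LOC100577840 changed by -0.83, with medians of 42.5 CPM in foragers and 49.5 CPM in nurses at day 26, and of 43.1 CPM in foragers and 29.1 CPM in nurses at day 7, the young nurses being the low group. LOC100577640 changed by -0.59, but with this sign in only 2 of the 6 colonies.

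The gene vas had medians of 51.8 CPM in foragers (26.0 to 178) and 46.6 CPM in nurses (28.9 to 119.8) at day 26, and of 45.3 CPM in foragers (13.8 to 212) and 28.8 CPM in nurses (10.5 to 144) at day 7. Its own fitted log2 interaction was -0.31 ± 0.30 (SE; edgeR adjusted p = 0.725). The part that the germ line of some bees plays in the 3 genes was not tested.

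Among the positive genes, LOC552277 had the largest change, 1.16. At day 26 foragers ran from 73.8 to 370.0 CPM with a median of 221, and nurses from 50.0 to 374 CPM with a median of 101. At day 7 foragers ran from 96.6 to 166 CPM with a median of 123, and nurses from 84.2 to 301 CPM with a median of 141. Old foragers stood above the other 3 groups, and the change was positive in all 6 colonies, from 0.43 in colony 122 to 2.13 in colony 109. The role difference was 0.90 at day 26 and -0.27 at day 7.

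LOC411983 (0.96) and LOC550686 (0.62) followed the same pattern. LOC411983 had medians of 235 CPM in foragers and 133 CPM in nurses at day 26, and of 139.6 CPM in foragers and 134 CPM in nurses at day 7. LOC550686 had medians of 499.6 CPM in foragers (224 to 598) and 314 CPM in nurses (203 to 534) at day 26, and of 295 CPM in foragers (238 to 405) and 327 CPM in nurses (255 to 650.0) at day 7. In both, old foragers had the highest median, and both changes were positive in all 6 colonies. After the group means were subtracted, LOC552277, LOC411983 and LOC550686 were correlated at r = 0.64 to 0.75. The closest named gene to LOC552277 was CSP1, which encodes a chemosensory protein (r = 0.61). That to the other two was Cyp4g11 (r = 0.54 with LOC411983 and 0.57 with LOC550686), a cytochrome P450 gene of a group that makes cuticular hydrocarbons in Drosophila.

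CSP1 had medians of 795 CPM in foragers (265 to 1547) and 344 CPM in nurses (183 to 998) at day 26, and of 459.9 CPM in foragers (264 to 753) and 363 CPM in nurses (173 to 572) at day 7. Old foragers were its high group as well, and its fitted log2 interaction was 0.74 ± 0.23 (SE; edgeR adjusted p = 0.104). Cyp4g11 had medians of 2359 CPM in foragers and 2389 CPM in nurses at day 26, and of 1562 CPM in foragers and 2291 CPM in nurses at day 7, with young foragers as its low group (0.45 ± 0.17, adjusted p = 0.213).

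**Figure D3:**
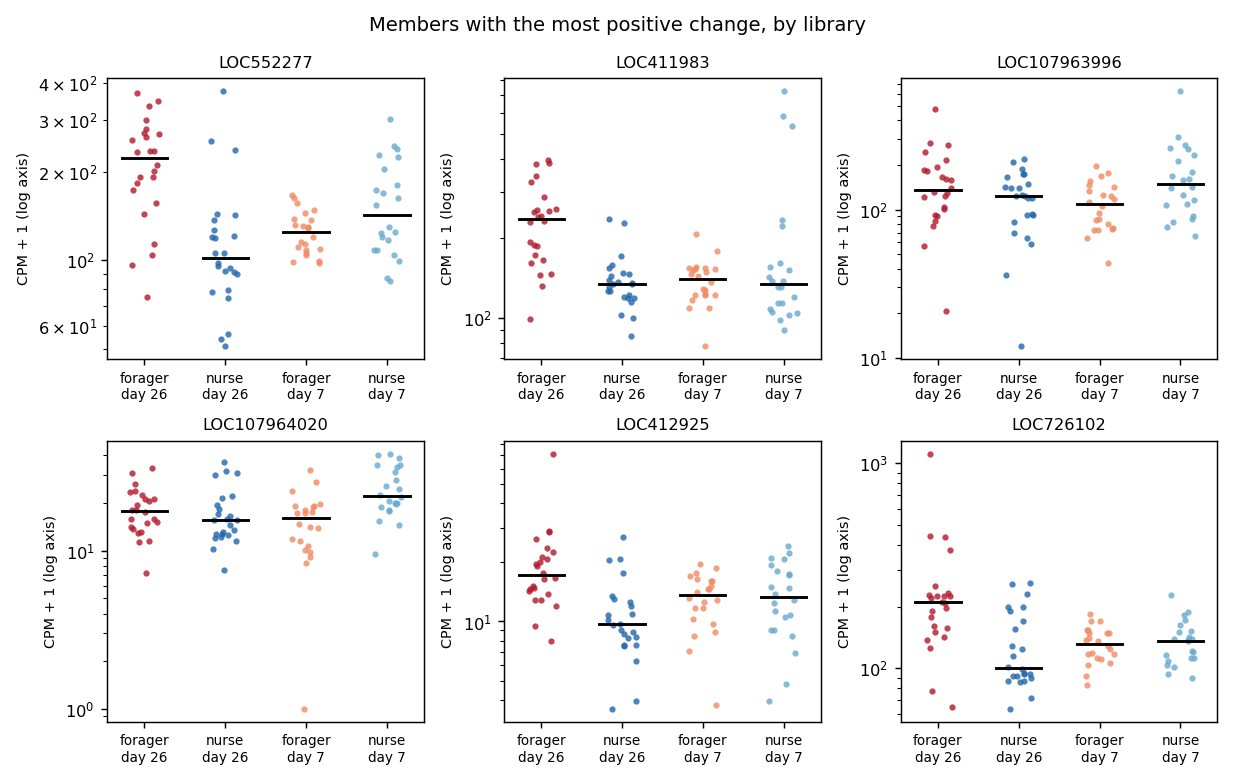
CPM + 1 on a log axis in each library (points) with the group median (bar) for the 6 genes with the most positive change, in foragers and nurses of day 26 and foragers and nurses of day 7. For LOC552277 and LOC411983 the medians of old foragers, 221 and 235 CPM, stood above those of the other 3 groups.

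LOC726102 (0.81) and LOC412925 (0.85) were likewise high in old foragers. LOC726102 had medians of 209 CPM in foragers and 99.1 CPM in nurses at day 26, against 131 CPM in foragers and 135 CPM in nurses at day 7, and reached 1111 CPM in 1 forager library of day 26. LOC412925 had medians of 16.2 CPM in foragers and 8.65 CPM in nurses at day 26, against 12.7 CPM in foragers and 12.3 CPM in nurses at day 7. In CPM the young bees of both roles had nearly equal medians in these genes. With TMM factors the role difference was 0.57 at day 26 and -0.30 at day 7 for LOC726102, and 0.66 at day 26 and -0.25 at day 7 for LOC412925. The size of the day 7 value thus depends on the scaling. LOC100576563 (0.60) had medians of 16.8 CPM in foragers and 10.8 CPM in nurses at day 26, against 11.4 CPM in foragers and 11.7 CPM in nurses at day 7.

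In the remaining positive genes described here, the group means on the log2(CPM + 1) scale differed more between young foragers and nurses than between old ones. LOC107963996 (0.92) had medians of 135 CPM in foragers (19.7 to 473) and 122 CPM in nurses (11.0 to 217) at day 26, and of 109 CPM in foragers (42.7 to 195) and 149 CPM in nurses (65.1 to 629) at day 7. Its closest named gene was Obp3, an odorant-binding protein gene (r = 0.71), whose medians of 405 CPM in foragers and 913 CPM in nurses at day 7 also had young foragers as the low group. The change of LOC107963996 ran from -0.34 in colony 107 to 2.06 in colony 122. LOC107964020 (0.88) had medians of 16.8 CPM in foragers and 14.6 CPM in nurses at day 26, and of 15.0 CPM in foragers and 21.0 CPM in nurses at day 7.

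LOC551241 (0.74) had medians of 95.9 CPM in foragers and 76.7 CPM in nurses at day 26, and of 59.3 CPM in foragers and 68.8 CPM in nurses at day 7. LOC724907 (0.62) had medians of 26.6 CPM in foragers and 22.6 CPM in nurses at day 26, and of 20.3 CPM in foragers and 27.6 CPM in nurses at day 7. With TMM factors the role difference at day 26 was -0.10 for LOC107964020, -0.02 for LOC551241 and -0.03 for LOC724907, so on that scale none of the 3 crossed. LOC551241 was closest to Jhe (r = 0.54), juvenile hormone esterase, which breaks down the hormone that paces the change from nursing to foraging.

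LOC551241 was also correlated with LOC406114 (r = 0.52), whose change had the opposite sign, -0.54. LOC406114 was closest to Vg (r = 0.63), the vitellogenin gene, a yolk and storage protein made in the fat body. Vg itself had a fitted log2 interaction of 1.18 ± 0.57 (SE; edgeR adjusted p = 0.371), opposite in sign to the change of LOC406114. With TMM factors the role difference of LOC406114 was -0.65 at day 26 and -0.175 at day 7, so on that scale it did not cross. LOC406114 had medians of 419 CPM in foragers (75.5 to 968) and 523 CPM in nurses (108 to 1233) at day 26, and of 349.7 CPM in foragers (104 to 1304) and 339 CPM in nurses (38.0 to 1461) at day 7. The groups were spread over nearly the same range, and its change had the negative sign in 3 of the 6 colonies. The 6 fat body storage genes together, with Vg among them, had medians of 251 CPM in foragers (131 to 5120.0) and 1867.5 CPM in nurses (132 to 12675) at day 26, and of 337 CPM in foragers (112 to 1688) and 4621 CPM in nurses (245 to 14574) at day 7. Their part in these genes was not tested.

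In all, 25 of the 60 genes had a named gene with a correlation of 0.5 or more, all of them positive. With TMM factors 20 of these stayed at 0.5 or more, and PHRF1 (0.39), CUTA (0.41), CytC (0.42), GluCl (0.44) and Slc35b1 (0.49) did not. Each value is the largest in size among 218 named genes, and its median size over the 60 genes was 0.46. The same share was not computed for all LOC genes, so nothing is read from the count of 25. Beside those given above, LOC102655756 was closest to TpnCIIIb, a troponin C gene of muscle (r = 0.68), and LOC411700 to Hsp90, a chaperone gene (r = 0.60). LOC552215 was closest to Cry2, a cryptochrome gene (r = 0.55), and LOC551728 to GluCl, a glutamate-gated chloride channel gene (r = 0.54). LOC100578826 was closest to PHRF1 (r = 0.62), LOC100578529 to Prpf3 (0.61), LOC107964020 to Pet117 (0.55), LOC413944 to CUTA (0.55), LOC726102 to Ef-1a-f1 (0.53), LOC107963961 to the mitochondrial gene KEF36_p09 (0.51), LOC412564 to CytC, cytochrome c (0.50), and LOC410387 to Slc35b1 (0.50). Of the 1770 pairs among the 60 genes, 14 had a correlation of at least 0.5 in size (0.791%), against 1.33% of all pairs of the 5601 LOC genes. The 60 genes had a lower median level, 24.3 CPM against 39.1 CPM, and counting error can lower correlations. These shares were not computed with TMM factors, so nothing is read from the comparison. No 2 of the 60 genes were direct neighbours in the gene order of assembly Amel_HAv3.1.

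Colony of origin was not part of the rule, and it was tested over all 6753 genes that passed the low count filter, which all 60 did. Levels differed between colonies in 15 of the 60 genes at an adjusted p under 0.05 (25.0%), against 17.8% of all genes tested (edgeR quasi-likelihood F test). The share is close to the background. Without the 6 libraries whose mitochondrial profile lay apart, 16 of the 60 passed, against 19.0% of all genes. With colony 107 left out, 4 of the 60 passed, against 8.94% of all genes, and also 4 without replicate 2 (4.21% of all genes) or without replicate 3 (5.6%). Colony 107 had the highest level in 7 of the 15 and the lowest in 6.

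LOC100576828 had the smallest adjusted p for colony (3.41e-10). It averaged 44.9 ± 33.3 CPM in colony 109 (SD, n = 16 libraries) and 25.4 ± 17.2 CPM in colony 127 (n = 13), while the other 4 colonies averaged 7.38 to 12.6 CPM. In colony 109 the means of all 4 groups, 30.4 to 65.1 CPM, lay above those of colonies 107, 115, 122 and 137, and in colony 127 those of day 26 did (26.6 CPM in foragers and 42.4 CPM in nurses). The range between colonies, 2.16 on the log2(CPM + 1) scale, was wider than the change of its role difference, -0.73. LOC100577640 (adjusted p = 7.15e-05) was highest in colony 107, at 54.7 ± 32.9 CPM (n = 15), and lowest in colony 137, at 12.4 ± 5.90 CPM (n = 16).

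The other genes that varied with vas also differed between colonies in the edgeR test, LOC113218636 at an adjusted p of 0.00125 and LOC100577840 at 0.0205, and vas itself passed at 0.00449. LOC113218636 averaged 22.9 ± 18.3 CPM in colony 115 and 19.5 ± 7.87 CPM in colony 107, against 8.50 to 13.8 CPM in the other 4. For vas the same 2 colonies were the highest, colony 107 at 91.9 CPM and colony 115 at 78.6 CPM, against 45.0 to 60.8 CPM in the other 4.

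LOC726102 (adjusted p = 1.66e-04) was highest in colony 109, at 224 ± 249.9 CPM, where 1 library reached 1111 CPM, and lowest in colony 107, at 104 ± 33.7 CPM. LOC724331 (5.42e-04) was highest in colony 107, at 46.4 ± 19.7 CPM, and lowest in colony 127, at 22.7 ± 8.94 CPM. LOC725114 passed as well (0.00408), with 5935 ± 6949 CPM in colony 109 and 953 ± 531 CPM in colony 107, the other 4 colonies lying between 2874 and 3758 CPM.

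**Figure D4:**
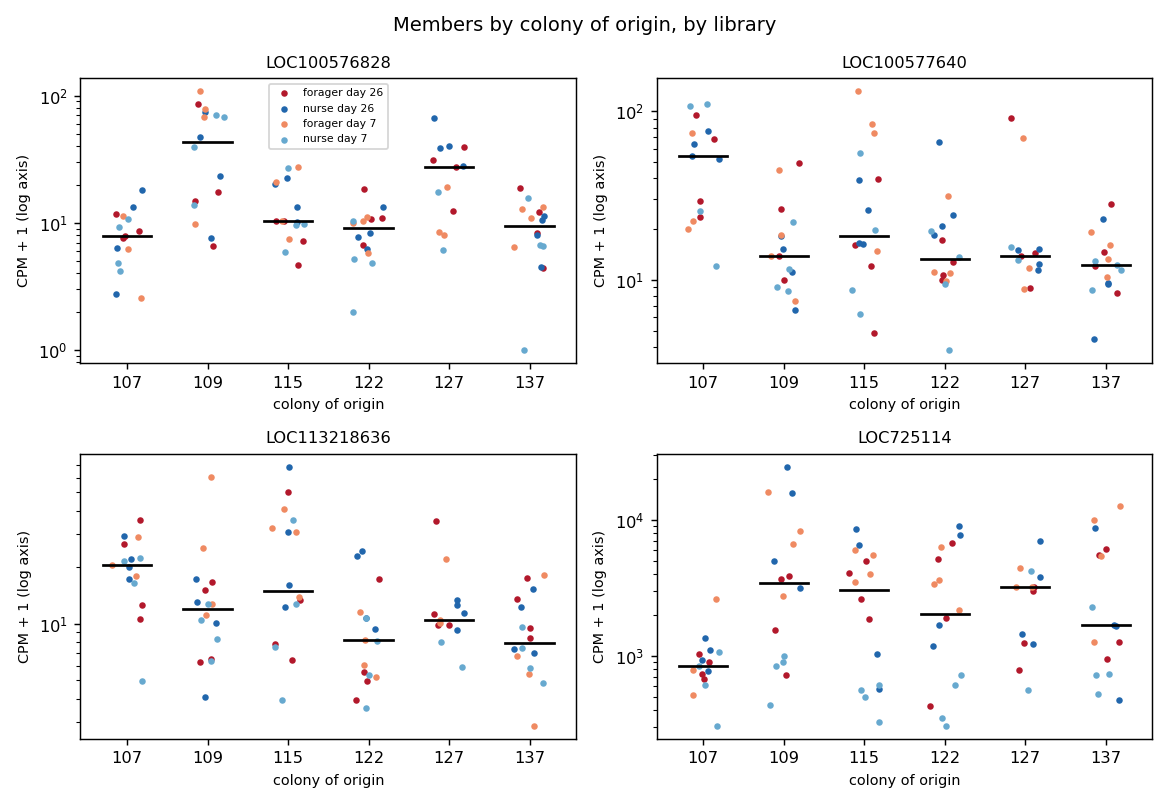
CPM + 1 on a log axis in each library (points, coloured by role and day) against colony of origin, with the colony median (bar), for LOC100576828, LOC100577640, LOC113218636 and LOC725114. LOC100576828 had its highest averages in colonies 109 and 127 (44.9 and 25.4 CPM), and LOC725114 was low in colony 107.

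Whether the change of the role difference itself varied between colonies was also tested. In the edgeR F test 0 of the 60 genes passed, 5 had an unadjusted p under 0.05, and DESeq2 also called 0. Of all 6753 genes, 0.118% were called, which is 8 genes, all of the mitochondrial genome (KEF36), and 0 were called without the 6 libraries whose mitochondrial profile lay apart. The smallest p was that of LOC551254 (unadjusted p = 0.00214, adjusted p = 0.482), whose change ran from -1.16 in colony 122 to 0.28 in colony 115. LOC113218518, with its change of -5.35 in colony 109, had an adjusted p of 0.792. LOC411700, LOC100576649 and LOC726102 were the next, each with an adjusted p of 0.886. A p above the threshold does not show that the colonies shared the same change. The change had the same sign in all 6 colonies for 26 genes, in 5 colonies for 28 and in 4 or fewer for 6. All 6 colonies had the same sign in 43.3% of the 60 genes and in 7.95% of the 5601 LOC genes. The genes were chosen for the size of this change in the same libraries, so nothing is read from that contrast. Colony 109 had the largest change for 20 of the 60 genes. The same count was not computed for all LOC genes, so nothing is read from it.

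**Figure D5:**
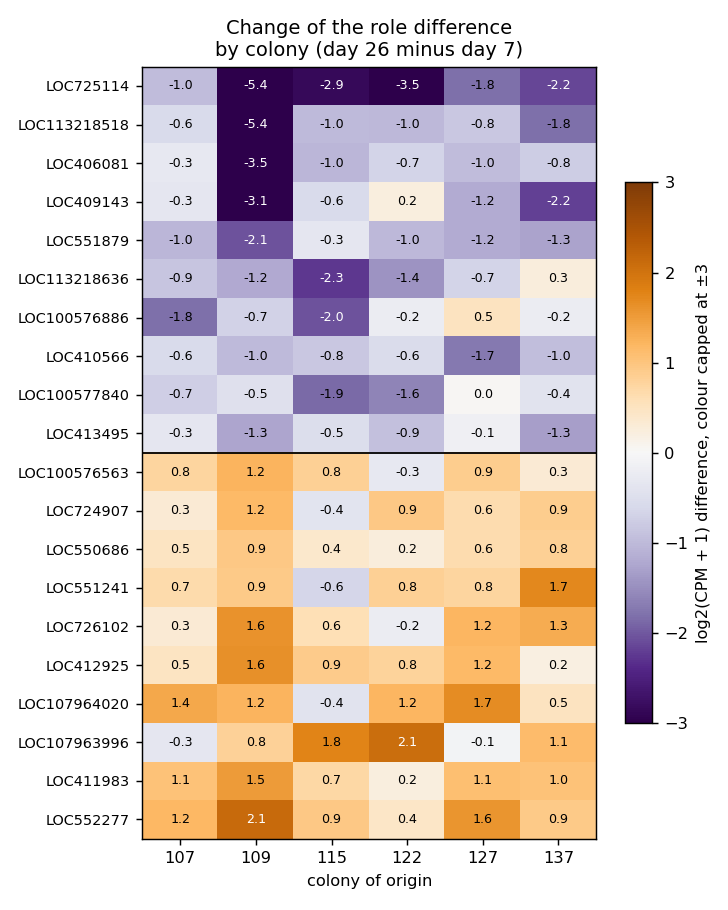
Change of the role difference (day 26 minus day 7, log2(CPM + 1), colour capped at ±3) within each colony of origin (columns) for the 10 genes with the most negative and the 10 with the most positive change (rows). Colony 109 holds the most negative values of the top 4 rows, -5.35, -5.35, -3.53 and -3.06.

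In the fit of all genes, 16 of the 60 had an interaction of role and day at an adjusted p under 0.05, 6 positive and 10 negative, where 0.829% of all 6753 genes tested did. Since the rule used this contrast, nothing is read from that count. In the median of the 60 genes, the 4 groups of role and day took up 12.9% of the variance of log2(CPM + 1), colonies within them 24.4%, and libraries within a colony, role and day 61.3%. The medians of all 5601 LOC genes were 14.8%, 23.9% and 58.9%. The median share of the 4 groups was thus slightly lower in the 60 genes than in all LOC genes, and most of the variance lay between libraries of the same colony, role and day. The shares are sums of squares not adjusted for the number of means. Variation between libraries alone would therefore also put a part under colonies. The rule used the same group means and limited the role and day differences, so nothing is read from the comparison with all LOC genes.

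Named genes could not be chosen by the rule, and 49 of those on 11 lists of genes known to follow task, age or tissue were tested for the same interaction. The lists were drawn up with earlier results of these data known. In the edgeR test 2 of the 49 passed (4.08%), both on the list of 10 odorant carriers and both positive, like LOC552277. Neither passed without the libraries marked #2 (adjusted p = 0.394 for Obp7 and 0.205 for CSP3) or without replicate 2 (0.199 and 0.149). CSP3 also did not pass without colony 109 (0.0903), colony 122 (0.0671), replicate 1 (0.0732) or replicate 3 (0.159). DESeq2 gave no adjusted p for Obp7. Obp7, an odorant-binding protein gene, averaged 8.35 ± 4.89 CPM in foragers and 3.24 ± 3.19 CPM in nurses at day 26 (SD, n = 24 each), and 6.31 ± 3.60 CPM in foragers and 10.9 ± 5.67 CPM in nurses at day 7 (n = 22 each). Its log2 interaction was 2.07 ± 0.42 (SE, edgeR adjusted p = 0.00359). The group means of Obp7 lay near or under 10 CPM, where a library of median depth has a counting error of 27.9%. CSP3, a chemosensory protein gene, averaged 8154 ± 1781 CPM in foragers and 7638 ± 1398 CPM in nurses at day 26, and 7323 ± 1173 CPM in foragers and 9815 ± 2179 CPM in nurses at day 7, a log2 interaction of 0.58 ± 0.13 (SE, adjusted p = 0.0122).

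None passed among the 6 genes of the hypopharyngeal gland, 3 nectar enzymes, 5 fat body storage genes, 4 venom gland genes, 3 eye genes, 3 muscle genes, 4 cuticle genes, 3 immune effectors, 3 hormone response genes and 5 neuronal genes tested, and 14 of all 49 had an unadjusted p under 0.05. The smallest adjusted p in these 10 lists was that of Hbg3, an alpha-glucosidase of nectar processing, at -1.28 ± 0.38 (SE, adjusted p = 0.0897).

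Over all 247 genes with a name, 8 passed the interaction test of edgeR (3.24%). Beside Obp7 and CSP3 these were TpnCIIIa, a troponin C gene that is not on the muscle list (-0.81 ± 0.20, adjusted p = 0.0223), and 5 genes of the mitochondrial genome, KEF36_p05 to KEF36_p09, with log2 interactions of 1.70 to 2.31 (adjusted p = 0.00816 to 0.0491). One of them, KEF36_p09, was the closest named gene to LOC107963961. None of the 5 passed without colony 115 (adjusted p = 0.564 to 0.944), nor without the 6 libraries whose mitochondrial profile lay apart (0.51 to 0.849), a set that was itself defined on mitochondrial genes. Without libraries marked #2, and without replicate 2, none of the 8 passed.

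The choice of genes had no gap at its lower edge. The last genes inside were LOC107963961 (-0.49), LOC102656291 (-0.49) and LOC551426 (-0.49), and the first outside were LOC726979 (-0.48), LOC552156 (-0.48) and LOC551515 (-0.48). By the ratio of the change to the larger main difference, LOC100576886 lay just inside at 2.00 and LOC102653947 just outside at 1.99. The shallow library of colony 107 foragers at day 7, which the rule had not used, lay nearer to the mean of foragers than to that of nurses at day 7 in 27 of the 60 genes, and in 3 of the 12 with at least 10 counts in it. Many of the 60 had few or no counts in it. LOC413495, for example, had 0 where its mean level predicts 0.845. For such genes counting error largely sets which mean is nearer, so nothing is read from the 27.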

How the data were processed

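Tags near the 3' end of transcripts (TagSeq, an in-house protocol per the labels) were sequenced from whole bees. The authors deposited 1 table of counts, whole numbers of reads per gene that were not normalized. The submitters' processing notes name FastQC, HISAT2, SAMtools and DESeq2 without versions. No counting program, genome build or annotation is given in the sources used here, and neither coordinates nor sequences are printed. On average 71.6% of the reads of foragers and 66.1% of those of nurses at day 26, and 68.1% and 65.0% at day 7, were counted as not aligned. Reads aligned to several places (2.67% and 3.34% at day 26, 3.41% and 4.09% at day 7) went to no gene, which can lower genes with close copies. These entries stayed out of totals. Counts of 3' tags were not divided by length, so levels of different genes are not compared.

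The negative control and 2 libraries of colony 127 nurses at day 7 have no column and were not analysed here. The library of 81736 counts was left out. The other 92 held 197805 to 2300891 counts. CPM are computed from the deposited counts without scaling factors. Genes were kept with filterByExpr at a minimum count of 10 (6753 genes), scaled by TMM factors and fitted in edgeR 4.0.16 (R 4.3.3) by quasi-likelihood with 24 means (colony by role by day), which left 68 residual degrees of freedom. Adjustment was by Benjamini-Hochberg over the 6753 genes, and calls were made at 0.05. The scripts were tested on simulated data. DESeq2 1.42.0 was an alternative, and the others are given in the closing section.

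The members, gene lists and tests were chosen with earlier results of these data known. Named are the 10 members with the most positive and the 10 with the most negative change, the 3 ranks on either side of the edge, the 5 with the smallest adjusted p for colony and the 5 for colony by interaction, and the genes with names other than LOC numbers whose residual correlation with a member was at least 0.5. Rules on protein identity and promoter motifs could not be applied, since no sequences were at hand. LOC406114 and some values by colony were singled out after their values were seen.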

Additional observations from a re-analysis of the deposited data

Results flagged for a closer look

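Among the 247 genes with a name, the role difference at day 26 differed from that at day 7 in 8 by the edgeR interaction test. On the log2 scale the difference was 2.07 for Obp7 and 0.58 for CSP3. It was 1.88 for KEF36_p05, 1.70 for KEF36_p06, 2.07 for KEF36_p07, 2.31 for KEF36_p08 and 1.79 for KEF36_p09, genes of the mitochondrial genome, and -0.81 for TpnCIIIa. A positive value means that foragers stood higher relative to nurses at day 26 than at day 7. The 5 mitochondrial calls ended without colony 115, and none of the 8 passed without libraries marked #2 or without replicate 2. The 60 LOC genes were chosen on this contrast and are not listed here for it, and groups of more than 10 libraries were not examined for single outlying values.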

How the results depend on the processing

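The count of the 60 genes called for the interaction, 16, ranged from 4 to 16 when a colony or a replicate number was left out and was 9 without libraries marked #2. The count called for colony, 15, ranged from 4 (without colony 107, and without replicate 2 or 3) to 16 and was 8 without #2. With fewer libraries these fits have fewer residual degrees of freedom. Of the 49 named genes on the lists, 2 were called in the main fit and 4 with DESeq2. Obp7 was not among those 4, as it had no adjusted p there. The count was 0 to 3 with a colony or replicate number left out and 0 without #2. The count for colony by interaction was 0 under every alternative run. Leaving out replicate 1 also left out colony 127, whose young nurses all carry that number.

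The choice itself depended on the processing. Of the 60 genes the rule kept 33 with TMM factors, 29 at a minimum mean of 5 CPM, 33 at 20 CPM, 28 with medians in place of means, 25 at a ratio of 3, 37 without #2, and 25 to 42 with a colony or a replicate number left out. LOC409143, LOC551879 and LOC552277 were kept in all 23 settings. In 18 settings of the fit, the interaction of no member reversed. Of the 1080 values in these settings, 59 moved by more than 1 SE of the main fit, all where libraries were left out. With each library left out in turn no member's change reversed, and only that of LOC552215 moved by over 1.5 times, being 0.34 without colony 122 forager day 7 replicate 3, against 0.54 with it. The genes were chosen for a large change in these same libraries, so a kept sign is partly set by the choice.

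With the replicate block the counts were 15, 15, 0 and 2. Libraries with the same number did not deviate together (median r = 9e-04, against 0.0033 for other numbers), and 36 of 92 correlated best with their own number, so the numbers were not taken to pair samples. Summing the similar libraries, leaving out those under 500000 counts and leaving out each library in turn were chosen after seeing the data. Depth limits the 27 genes under 20 CPM most.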
